A study of Mus musculus with 6 samples.

Results

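Trp53, which encodes the transcription factor p53, and 9 genes that p53 is known to switch on were followed in mouse small intestinal organoids. The set was chosen by gene symbol: Trp53, Mdm2, Ccng1, Phlda3, Zmat3, Bbc3, Bax, Eda2r, Sesn2 and Trp53inp1. All 10 had a row among the 21397 genes listed. The organoids came from small intestinal crypts of Fpr2f/f mice, in which the gene for formyl peptide receptor 2 (FPR2) is floxed. The line is on the C57BL/6J background, no Cre was named for these samples, and the methods describe adult mice matched for age and sex. The cultures were grown in Matrigel with IntestiCult medium and treated for 5 days. The MMK-1 group (3 libraries) received the peptide MMK-1, which was synthesised to activate FPR2. The Control group (3 libraries) received the vehicle alone, and the samples of both groups are listed with 0.1% DMSO. The protocol text gives the MMK-1 dose as 1 μM, while the treatment label of the same samples reads 1 mM. Each sample pooled organoids of several mice, per a figure legend of the study. The study states in general that its data come from 3 or more independent experiments. Whether different mice or separate cultures stood behind the libraries of a group here is not stated. The p-values therefore measure the spread between these pooled samples, part of which may be technical.

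p53 is held low in unstressed cells by MDM2, a ubiquitin ligase that marks p53 for degradation and that p53 itself induces. Damage or stress stabilises the protein, largely without a change in Trp53 mRNA, and p53 then binds DNA as a tetramer and raises the transcription of genes for growth arrest, cell death, metabolism and its own negative feedback. In the intestinal crypt this network is best known for the response of stem and dividing cells to irradiation.

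Promoter sequences are shown because the set is defined by a DNA-binding factor. The p53 half-site is a decamer that reads the same on both strands, and a full site is a pair of half-sites up to 13 bases apart. RefSeq promoter windows (build GRCm38.p6, 250 bases before to 50 bases after a start site) were held for 8 members in 10 windows. A perfect half-site was present in 4 of these 10 windows and in 8.36% of all 32851 windows of the same length. A pair of half-sites with at most 2 mismatches in all was present in 2 of the 10 and in 4.09% of all windows. The 4 stretches below run 5′ to 3′ on the gene's own strand, with the pair (Ccng1, Bax) or the perfect half-site (Mdm2, Trp53) in capitals and 20 bases on each side. They lie at chr11:40755442-40755501 (−), chr7:45467059-45467119 (−), chr10:117710915-117710964 (−) and chr11:69580264-69580313 (+).
Ccng1: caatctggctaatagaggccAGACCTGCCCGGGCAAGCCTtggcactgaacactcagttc
Bax: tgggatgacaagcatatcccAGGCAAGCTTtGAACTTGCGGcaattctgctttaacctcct
Mdm2: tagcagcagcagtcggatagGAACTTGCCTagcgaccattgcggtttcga
Trp53: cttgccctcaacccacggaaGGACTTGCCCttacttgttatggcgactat
The Ccng1 pair had 1 mismatch and no spacer and lay 195 to 176 bases before the start site. The Bax pair had 2 mismatches and a spacer of 1 base, 201 to 181 bases before the start. The half-sites lay 186 to 177 bases before the start of Mdm2 and 75 to 66 before that of Trp53. A match of letters is a description, not evidence of binding.

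Values are FPKM, fragments scaled by gene length and by the size of the library, so levels can be compared between genes. Each library held between 35512739 and 37537463 fragments, recovered from the FPKM steps. The first principal component of log2(FPKM + 1) held 92.4% of the variance and separated the groups. The second, with 4.48%, set MMK-1 replicate 3 apart from the other MMK-1 libraries. In that library the genes of lowest GC content (31.9% to 43.8% GC, 2083 genes when those tested were split into 5 groups) had a median 0.13 below replicates 1 and 2 on the log2(FPKM + 1) scale, while the other GC groups had medians 0.04 to 0.10 above. Values of members that stood apart in that library are given with and without it. The part of GC content in these values was not tested beyond the correction given beside them.

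Most of the set was higher in organoids given MMK-1. Of the 9 members with a mean of at least 1 FPKM, 7 rose (adjusted p of at most 0.05, limma), none fell, and Ccng1 and Bbc3 did not pass the test. Over all 10551 genes tested, 48.5% were called higher and 24.7% lower by the same rule, so a call alone was common, and in either direction it reached 73.2%. The median log2 fold change of the 9 members was 0.58, against 0.13 for all genes tested. None of the 9 reached a fold change of 2 on the log2(FPKM + 1) scale, a size passed upwards by 3.39% of the genes tested. The groups did not overlap for these 7 members, all higher with MMK-1, as for 50.5% of the genes tested, while 26.3% did not overlap and were lower. The same number of members, 7, was called higher with median-of-ratios scaling, where 35.9% of all genes were called higher and 36.3% lower, and where the median of all genes went from 0.13 to 0.01 and that of the members to 0.44. It was also 7 with the GC trend removed (39.4% higher and 34.2% lower), where 1 member, Bbc3, was called lower. With limma-voom on the fragments, which kept Eda2r among 13385 genes, 8 of 10 were called higher, beside 44.5% higher and 23.2% lower over all genes. These fold changes understate those of genes with low FPKM, since 1 was added before taking logs.

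**Figure D1:**
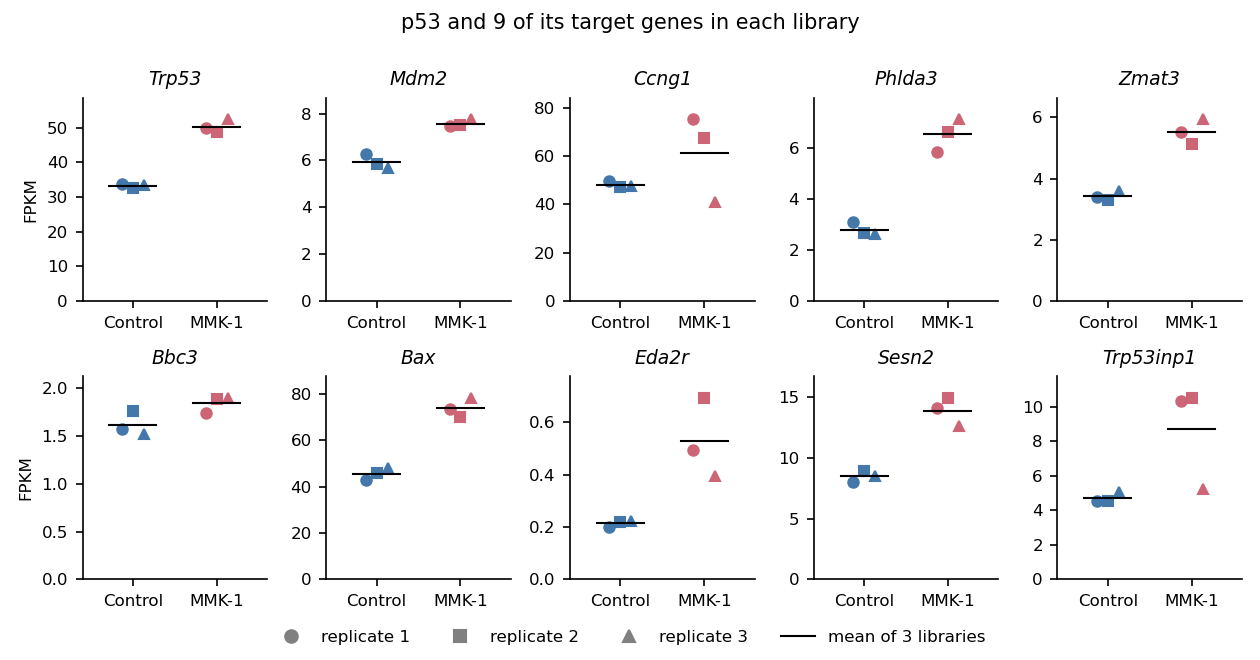
FPKM (vertical axis, from 0) of p53 and its 9 targets in the 3 Control and 3 MMK-1 libraries, with a marker shape for each replicate number and a line at the group mean. The groups do not overlap for Trp53, Mdm2, Phlda3, Zmat3, Bax, Eda2r, Sesn2 and Trp53inp1, and MMK-1 replicate 3 (triangle) is the lowest MMK-1 library for Ccng1, Eda2r, Sesn2 and Trp53inp1.

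Trp53 (chromosome 11, 69580348 to 69591873, plus strand) was measured at 33.7, 32.7 and 33.4 FPKM in the Control libraries. In the MMK-1 libraries it was measured at 49.8, 48.7 and 52.4 FPKM. Its position and those of the members that follow are from RefSeq on GRCm38.p6. Every MMK-1 library was above every Control library. The mean went from 33.3 ± 0.512 to 50.3 ± 1.90 FPKM (SD, n = 3 each), a ratio of 1.51, and the log2 fold change was 0.58 with a standard error of 0.0421 (adjusted p = 3.72e-06). This was larger than the change of 85.6% of the genes tested. The mRNA level says nothing of p53 protein, which was not measured in these files.

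Mdm2 (chromosome 10, 117688875 to 117710758, minus strand), the main negative regulator of p53, stood at 6.27, 5.85 and 5.69 FPKM in Control and at 7.46, 7.50 and 7.75 FPKM with MMK-1. The groups were apart by more than the spread within them. Mdm2 rose by a log2 fold change of 0.31 with a standard error of 0.0498 (adjusted p = 5.32e-04), or 1.28 times in FPKM, the smallest change among the 7 members called. With median-of-ratios scaling the log2 fold change was 0.18 (adjusted p = 0.00789). The call did not hold once a trend with gene length was removed (log2 fold change 0.11, adjusted p = 0.0809). Genes of greater length had larger changes across the whole table, with a median of 0.03 in the shortest of 5 length groups and 0.22 in the longest, and Mdm2 counted as 7415 bases in the deposited values.

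Cdkn1a, the cell cycle inhibitor p21 and the textbook p53 target outside the set, stood at 87.6, 90.4 and 87.4 FPKM in Control and at 133, 134 and 141 FPKM with MMK-1, a log2 fold change of 0.61. Its level was above those of Bax and Ccng1 in every library.

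Members that act in growth arrest or growth control moved by different amounts. Phlda3 (chromosome 1, 135766085 to 135769134, plus strand) encodes a pleckstrin homology domain protein that restrains AKT. Phlda3 stood at 3.11, 2.69 and 2.63 FPKM in Control and at 5.87, 6.66 and 7.14 FPKM with MMK-1. The lowest MMK-1 library was well above the highest Control library. Its FPKM ratio was 2.33, the largest among the 9 tested, and its log2 fold change was 0.99 with a standard error of 0.0771 (adjusted p = 5.78e-06), above 96.4% of the genes tested.

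Zmat3 (chromosome 3, 32334792 to 32365665, minus strand), an RNA-binding zinc finger protein, stood at 3.40, 3.29 and 3.61 FPKM in Control and at 5.53, 5.13 and 5.93 FPKM with MMK-1. The groups did not overlap. It rose by 0.56 with a standard error of 0.0609 on the log2 scale (adjusted p = 4.50e-05), and by 0.35 with the length trend removed.

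Sesn2 (chromosome 4, 132492804 to 132510456, minus strand) encodes sestrin 2, a stress protein that restrains mTORC1. Its values were 8.04, 8.94 and 8.49 FPKM in Control and 14.1, 15.0 and 12.6 FPKM with MMK-1. Again all MMK-1 libraries were higher. The log2 fold change was 0.65 with a standard error of 0.0668 (adjusted p = 3.17e-05).

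Ccng1 (chromosome 11, 40748552 to 40755309, minus strand) encodes cyclin G1, an atypical cyclin that binds protein phosphatase 2A. It stood at 49.8, 47.3 and 47.7 FPKM in Control. The MMK-1 libraries were at 75.2, 67.6 and 41.1 FPKM, so replicates 1 and 2 were above every Control library and replicate 3 was below them all. Ccng1 did not pass the test (log2 fold change 0.29, standard error 0.185, adjusted p = 0.179, with 95% confidence limits of -0.13 and 0.72). The exact two-sided permutation test gave p = 0.4, where 3 against 3 cannot go below 0.1. Without MMK-1 replicate 3 the change was 0.55 with a standard error of 0.0471 (adjusted p = 1.55e-05). With the GC trend of each library removed it was 0.04 (adjusted p = 0.821), and with that trend removed and replicate 3 left out it was 0.24 (adjusted p = 0.00193).

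Trp53inp1 (chromosome 4, 11156441 to 11174379, plus strand), a stress-induced nuclear protein that takes part in p53 phosphorylation and autophagy, split in the same way. Control libraries held 4.53, 4.55 and 5.06 FPKM. MMK-1 replicates 1 and 2 held 10.3 and 10.5 FPKM, and replicate 3 held 5.21 FPKM, just above the highest Control library. Trp53inp1 passed the test with a log2 fold change of 0.71 and a standard error of 0.207 (adjusted p = 0.0130). Without MMK-1 replicate 3 the change was 1.00 (standard error 0.0528, adjusted p = 1.07e-06). With the GC trend removed it was 0.38 (adjusted p = 0.0480), and the call was lost with no limit on FPKM (adjusted p = 0.0687), though not with the limit lowered to 0.1 FPKM (adjusted p = 0.0174).

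Ccng1 and Trp53inp1 had GC contents of 40.8% and 38.8%, both within the lowest GC group. Their difference between MMK-1 replicate 3 and the mean of replicates 1 and 2, -0.78 and -0.88 on the log2(FPKM + 1) scale, lay at the 0.540 and 0.351 percentiles of all genes tested. Sesn2, with 58.7% GC, was 0.19 lower in replicate 3, while the other 6 members tested were 0.04 to 0.17 higher there.

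**Figure D2:**
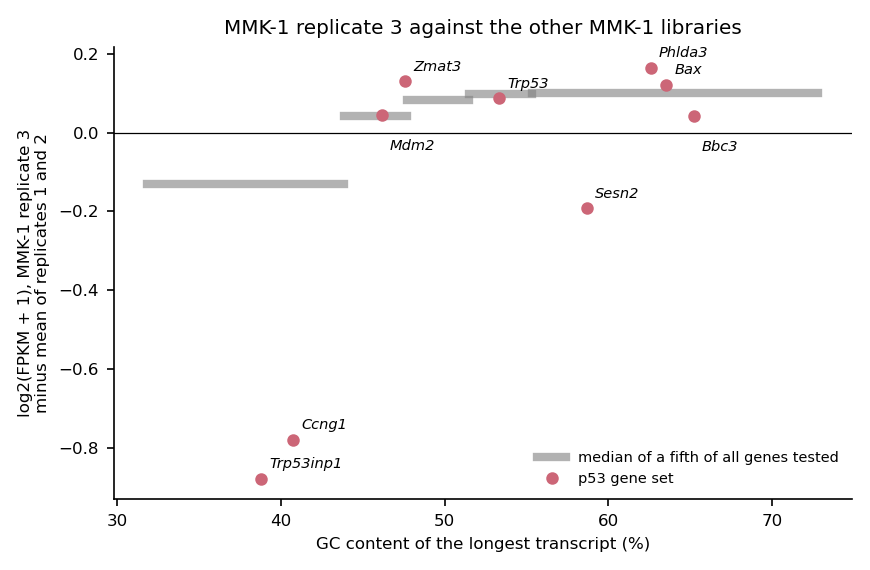
Difference in log2(FPKM + 1) between MMK-1 replicate 3 and the mean of replicates 1 and 2 (vertical axis) against GC content in percent (horizontal axis) for the 9 members tested, with grey bars for the median of each of 5 GC groups of all genes tested. Ccng1 at -0.78 and Trp53inp1 at -0.88 lie far below the median of -0.13 of the lowest GC group.

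Among the cell death genes, Bax and Bbc3 differed. Bax (chromosome 7, 45461695 to 45466903, minus strand) forms pores in the outer mitochondrial membrane. Bax stood at 43.1, 46.0 and 47.9 FPKM in Control and at 73.5, 70.2 and 78.3 FPKM with MMK-1. The groups were far apart, and the log2 fold change was 0.68 with a standard error of 0.0554 (adjusted p = 7.14e-06), a ratio of 1.62. With the GC trend removed the change was 0.43 (adjusted p = 3.36e-05). Its exons share 192 bases on the same strand with Gm45808, so reads from these bases could belong to either gene. No other member had exon overlap with a neighbour.

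Bbc3 (chromosome 7, 16308398 to 16318334, plus strand) encodes PUMA, a BH3-only protein that promotes BAX activation. It was low, at 1.57, 1.76 and 1.52 FPKM in Control and at 1.74, 1.89 and 1.90 FPKM with MMK-1. The lowest MMK-1 library was below the highest Control library. Bbc3 did not pass the test (log2 fold change 0.12, standard error 0.0618, adjusted p = 0.111, with 95% confidence limits of -0.02 and 0.26). Its sign turned when the GC trend was removed, to -0.20 (adjusted p = 0.0124), and its GC content of 65.2% was the highest of the set.

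Eda2r (X chromosome, 97333837 to 97377234, minus strand) encodes a receptor of the tumour necrosis factor family that binds ectodysplasin A2. It was under the limit of 1 FPKM and so was not tested with the others. It held 0.201, 0.219 and 0.224 FPKM in Control, from 55, 60 and 61 fragments, and 0.494, 0.694 and 0.395 FPKM with MMK-1, from 128, 182 and 107 fragments. All MMK-1 libraries were above the Control libraries, with a ratio of means of 2.46. With no limit on FPKM, Eda2r rose by 0.33 on the log2(FPKM + 1) scale (adjusted p = 0.0127), where 28.1% of 20676 genes were called higher and 15.2% lower. With limma-voom on the fragments it rose by 1.25 (adjusted p = 0.00122). In the fit with no limit the change was 0.39 without MMK-1 replicate 3 (adjusted p = 0.00800), and the call was lost without Control replicate 1, 2 or 3 (adjusted p = 0.0573, 0.0533 and 0.0535). Its GC content was 40.9%, and replicate 3 was its lowest MMK-1 library. Eda, Edar and Edaradd, the ligand gene, the sister receptor and its adaptor, were also under 1 FPKM, while the signalling adaptors Traf6 and Traf3 rose by 0.58 and 0.33.

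Levels per length spanned a wide range within the set. In Control the order was Ccng1 (48.3 FPKM), Bax (45.7), Trp53 (33.3), Sesn2 (8.49), Mdm2 (5.93), Trp53inp1 (4.71), Zmat3 (3.43), Phlda3 (2.81), Bbc3 (1.62) and Eda2r (0.215). Ccng1 and Bax overlapped between their libraries, and no other neighbours in that order did. With MMK-1 the order was Bax (74.0 FPKM), Ccng1 (61.3), Trp53 (50.3), Sesn2 (13.9), Trp53inp1 (8.68), Mdm2 (7.57), Phlda3 (6.56), Zmat3 (5.53), Bbc3 (1.84) and Eda2r (0.527). In that group Ccng1 overlapped Bax through replicate 1 and lay below Trp53 in replicate 3, and Trp53inp1 spread across the levels of Mdm2, Phlda3 and Zmat3 through replicate 3. Phlda3 and Zmat3 also overlapped.

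**Figure D3:**
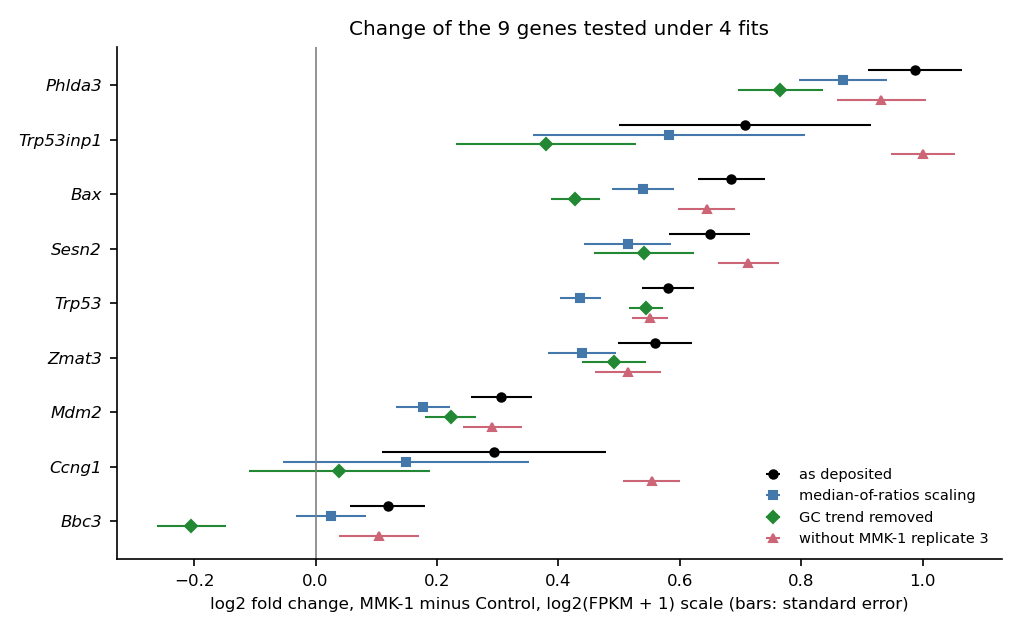
Log2 fold change of the 9 members tested, MMK-1 minus Control on the log2(FPKM + 1) scale, with bars of 1 standard error, in 4 fits: as deposited, with median-of-ratios scaling, with the GC trend removed and without MMK-1 replicate 3. Phlda3 has the largest change as deposited (0.99), Ccng1 ranges from 0.04 to 0.55, and Bbc3 is below 0 with the GC trend removed (-0.20).

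Ratios between genes of the same library do not depend on how libraries are scaled to each other, though they do depend on a GC trend, so 13 were compared by the exact two-sided permutation test (3 against 3, smallest p 0.1). The groups did not overlap for 8 of them, each with an exact permutation p = 0.1 (0.1625 adjusted over the 13), which the design cannot take below 0.05. How often ratios between other genes separate was not counted. Among single genes tested, 50.5% did not overlap and were higher and 26.3% did not overlap and were lower. The count of 8 is therefore not read as a trait of this set. Phlda3 to Trp53 was 0.0924, 0.0822 and 0.0785 in Control and 0.118, 0.137 and 0.136 with MMK-1, a difference of 0.63 in log2 ratio. Mdm2 to Trp53 lay the other way, at 0.186, 0.179 and 0.170 in Control and 0.150, 0.154 and 0.148 with MMK-1 (difference -0.24). Bbc3 to Trp53 was also lower with MMK-1 (-0.41), and these were the only separated ratios that were. Bax to Trp53 (0.10) and Eda2r to Trp53 (0.66) were higher. Bax to Trp53 was 0.051 without Control replicate 1. Eda2r to Trp53 was 0.42 without MMK-1 replicate 2, 0.88 without MMK-1 replicate 3 and 0.38 with a pseudocount of 0.1, where its groups overlapped.

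Against their partners, Bax to Bcl2l1, a death-promoting gene over the gene of the survival protein BCL-XL, was 3.30, 3.38 and 3.57 in Control and 6.96, 6.05 and 6.24 with MMK-1. Every MMK-1 library exceeded every Control library, by a mean of 0.91 in log2 ratio. Bbc3 to Bcl2l1 was higher by 0.40 and Sesn2 to Sesn1 by 1.23. Zmat3, Sesn2, Ccng1 and Trp53inp1 to Trp53, and Mdm2 to Mdm4, overlapped between the groups, with differences of 0.09, 0.11, -0.30, 0.22 and -0.06. With the GC trend removed, the fold change of Bax on the log2(FPKM + 1) scale was 0.43 against 0.54 for Trp53, so the order of the pair turned. On that scale the difference between Bbc3 and Trp53 went from -0.46 to -0.75. The difference between Bbc3 and Bcl2l1 went from 0.31 to 0.05, that between Phlda3 and Trp53 from 0.41 to 0.22, and that between Sesn2 and Sesn1 from 1.13 to 1.07. For Ccng1 and Trp53inp1 the lowest ratio was that of MMK-1 replicate 3. Without that library the differences to Trp53 were -0.0017 for Ccng1, 0.58 for Trp53inp1 and 0.21 for Sesn2. In the same order they were -0.47, 0.051 and 0.093 without MMK-1 replicate 1, and -0.41, 0.023 and 0.037 without replicate 2. With the GC trend removed, the differences in fold change to Trp53 went from -0.29 to -0.51, from 0.13 to -0.17 and from 0.07 to -0.0032.

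**Figure D4:**
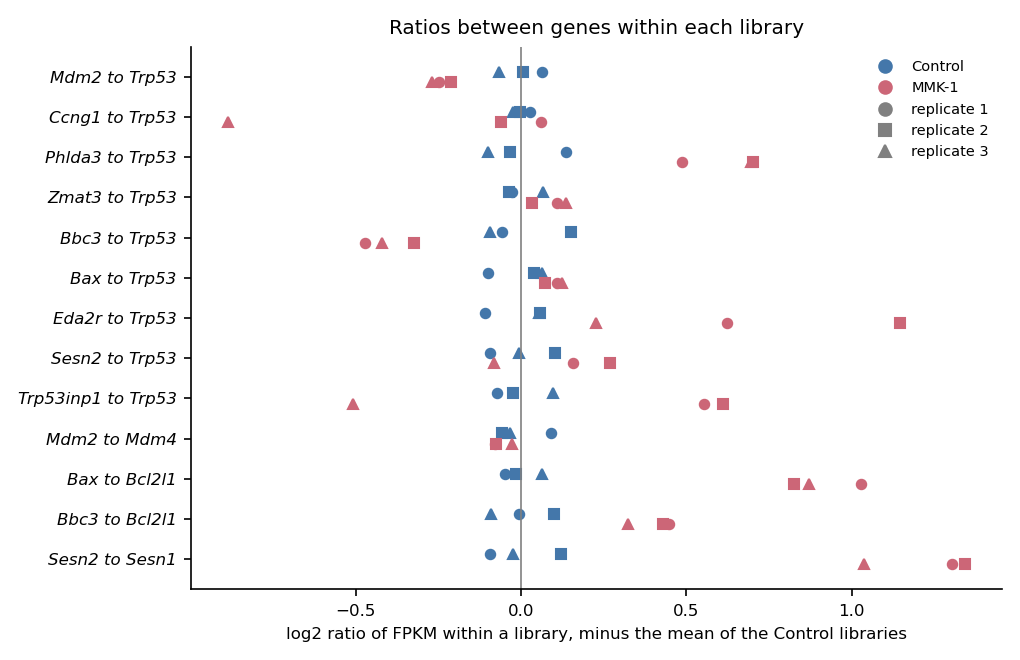
Log2 ratio of FPKM between the named genes within each library, minus the mean of the Control libraries (horizontal axis), for 3 Control and 3 MMK-1 libraries and 13 ratios. MMK-1 points lie to the right of all Control points for Phlda3, Bax and Eda2r to Trp53, Bax and Bbc3 to Bcl2l1 and Sesn2 to Sesn1, and to the left for Mdm2 and Bbc3 to Trp53.

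Relatives of the members showed mixed changes. Of 7 paralogs with at least 1 FPKM, 5 rose, beside 48.5% of all genes tested, namely Phlda1 (0.85), Phlda2 (0.82), Sesn3 (0.75), Mdm4 (0.39) and Trp53inp2 (0.39). Sesn1 fell by 0.48, opposite to Sesn2. Ccng2, the paralog of Ccng1, did not pass the test, with a value of -0.10, and was called lower with the GC trend removed (-0.28, adjusted p = 0.00217). The p53 family gene Trp73 was near 0 FPKM, and Trp63 was not analysed here.

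Upstream of p53, 10 of 12 regulators rose and none fell, with a median log2 fold change of 0.39, beside 48.5% of all genes higher and a median of 0.13. The regulators' median was 0.17 with the GC trend removed and 0.18 with the length trend removed, and with median-of-ratios scaling 8 rose and 1 fell. Chek1 (0.98) and Chek2 (0.72), which encode checkpoint kinases that phosphorylate p53, had the largest changes, followed by Ppm1d (0.56), the gene of a phosphatase that removes those marks. Among arrest targets other than the members, 6 of 8 rose and none fell (median 0.48), while 1 was called lower with median-of-ratios scaling, with the GC trend removed or without MMK-1 replicate 2. They included Gtse1 (0.97), a microtubule-associated protein that restrains p53, Cdkn1a (0.61) and Btg2 (0.56), an antiproliferative gene.

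Of 10 apoptosis targets, 7 rose and 2 fell, with a median of 0.23, and with median-of-ratios scaling 4 rose and 3 fell (median 0.09). Over all genes 48.5% were higher and 24.7% lower, and 35.9% and 36.3% with that scaling, so the latter counts are near the background. Apaf1 (0.63), the scaffold of the apoptosome, Aen (0.56), an exonuclease, and Pidd1 (0.56), a platform for caspase 2, were the largest increases. Fas, the death receptor, fell by 0.88, from 3.65, 4.30 and 4.71 FPKM in Control to 1.45, 1.82 and 2.27 FPKM with MMK-1, and Bid fell by 0.24. The wider BCL2 and caspase list went the other way, with 2 of 12 higher, 6 lower and a median of -0.12. With median-of-ratios scaling 9 were lower (median -0.25), as with the length trend removed (median -0.26). Bcl2l11, which encodes the death-promoting protein BIM, rose by 0.43. Bad and Casp9 fell by 0.62 and 0.34.

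Targets in DNA repair and metabolism, a list that also held targets of other roles such as Gdf15 and Ckap2, moved both ways. Their shares were near those of all genes tested (48.5% higher and 24.7% lower). Of 15 tested, 6 were higher and 4 lower, with a median of 0.01, which turned to -0.12 with median-of-ratios scaling (5 higher and 6 lower) and to -0.10 with the GC trend removed. Gls2 (1.13), a mitochondrial glutaminase, Gdf15 (1.13), a stress-induced cytokine, and Ckap2 (0.67), a spindle protein, rose. Dcxr and Ephx1, both enzymes of small molecule metabolism, fell by 1.00 and 0.69, and Sesn1 fell as well. The repair gene Ddb2 did not pass the test (0.01). Neither did Xpc (-0.19, adjusted p = 0.0573), which was called lower with upper-quartile scaling (-0.26, adjusted p = 0.0165), with the GC trend removed (-0.23, adjusted p = 0.0239) and without MMK-1 replicate 3 (-0.23, adjusted p = 0.0339).

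The p53 pathway of the KEGG annotation in the deposited table held 71 genes, 7 of them members. Of its 61 genes tested, 43 rose and 10 fell, with a median of 0.44. The 11 cyclins of types B, D and E and cyclin-dependent kinases of the pathway rose, by 0.56 to 1.51 with a median of 0.81, led by Ccnd1 (1.51) and Ccne2 (1.41), genes of cyclins D1 and E2 that drive entry into S phase. These are cell cycle engines rather than genes that p53 induces. Without them and without the members, 27 of 43 rose and 10 fell, with a median of 0.34, and Cd82, a membrane protein, fell by 0.41. Over the KEGG pathway and the regulator, arrest, apoptosis, repair and BCL2 lists, with the members left out, 51 of 82 genes tested were higher (62.2%) and 16 lower (19.5%), beside 48.5% and 24.7% of all genes tested. This count includes the 11 cyclins and cyclin-dependent kinases again, all of them higher.

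**Figure D5:**
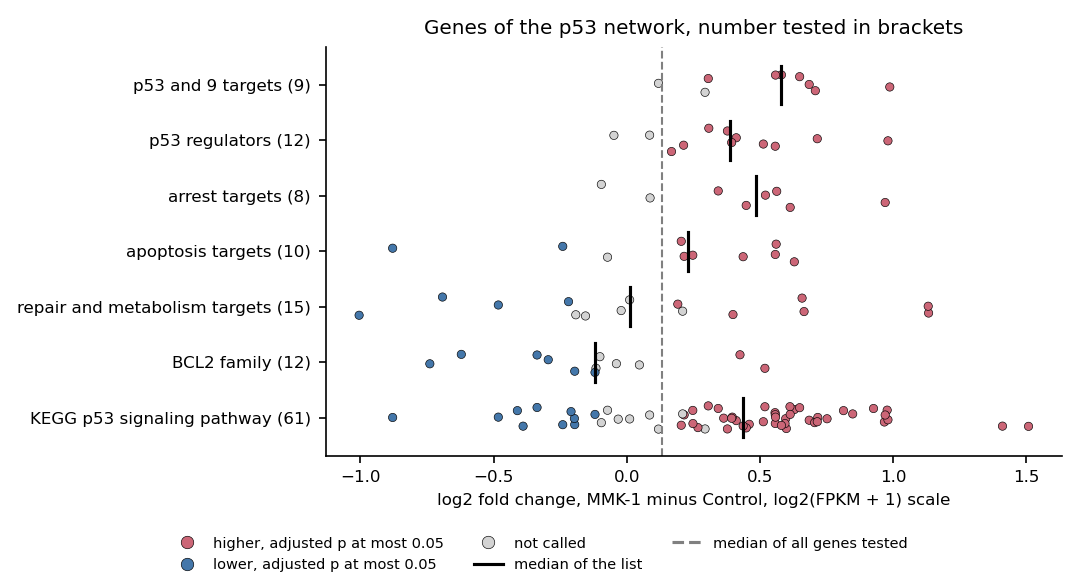
Log2 fold change, MMK-1 minus Control on the log2(FPKM + 1) scale, of each gene tested in 7 lists of the p53 network, coloured by the call, with a black line at the list median and a dashed line at the median of all genes tested (0.13). The median is 0.58 for the 9 members tested (p53 and its targets without Eda2r) and 0.48 for arrest targets. It is 0.01 for repair and metabolism targets and -0.12 for the BCL2 family.

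Across the 6 libraries the gene most like each of the 9 members tested (Eda2r was not) in log2(FPKM + 1) had a Pearson r of at least 0.997. The 6 libraries share their group difference and the shift of MMK-1 replicate 3, and no correlation was taken within a group. The closest were Galnt6 for Trp53, Plekha5 for Mdm2, Brd8 for Phlda3, Ckap2l for Zmat3, Rhou for Bax, Chd9 for Sesn2 and Bcl6 for Bbc3. For Trp53, 2848 genes had an r of at least 0.95, so the likeness is shared by much of the transcriptome. Bbc3 had the fewest such genes (23), followed by Ccng1 (89) and Trp53inp1 (436). The nearest genes of Ccng1 and Trp53inp1 were chosen on these same libraries, so a low value in MMK-1 replicate 3 came with the choice. Dynlt3, nearest to Ccng1, held 43.8, 39.6 and 24.6 FPKM with MMK-1, and Tmx1, nearest to Trp53inp1, held 52.4, 50.9 and 26.5 FPKM.

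Markers of the cell types in the organoids moved with the treatment. In bulk RNA a change in the number of cells of a type and a change in RNA per cell cannot be told apart. Stem cell markers (Lgr5, Olfm4, Ascl2, Smoc2) rose in 4 of 4 cases, with a summed level of 40.4 to 40.7 FPKM in Control and 289 to 304 with MMK-1. Proliferation markers rose in 5 of 5, from a sum of 74.8 to 77.7 FPKM to one of 147 to 152. Of 6 enterocyte markers 5 fell, and Fabp1 rose by 0.17, a call lost with upper-quartile scaling, with sums of 7754 to 7891 and 4677 to 5060 FPKM, and 4 of 4 Paneth cell markers rose. Epithelial markers were abundant in every library (sums of 2074 to 2084 and 1620 to 1761 FPKM). Immune markers summed to 5.41 to 6.19 FPKM in Control and 1.80 to 2.92 with MMK-1, with Ptprc, Cd3e and Cd79a near 0, and stromal and vessel markers to less than 0.35 FPKM in every library. The part of these shifts in the values of the p53 genes was not tested.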

How the data were processed

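RNA from 6 organoid libraries (3 Control, 3 MMK-1) was sequenced and processed by the authors, who deposited 1 table of FPKM per gene. The submitters' processing notes name HISAT2, HTSeq, DESeq2, R 3.2.0 and build mm10, without roles. Whether the counting used strand is not given in the sources used here. No column of values lacked a sample.

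From the deposited FPKM, log2(FPKM + 1) was fitted with limma 3.58.1 (R 4.3.3, trended variance, group only) over the 10551 genes whose mean reached 1 FPKM, with p-values adjusted by the Benjamini-Hochberg method over all of them. A gene was called where its adjusted p did not exceed 0.05. A second count used the methods' thresholds, a fold change of 2 or more with p no larger than 0.05. Whole fragments were recovered from the FPKM values by finding each library's scale and each gene's length. Recovery was tested on simulated data, where 99.1% of 12038 genes with at least 30 fragments on average came out exact. In simulated libraries, the fit called 99.0% of 96 genes changed by 0.5 on the log2 scale, 100% of 97 changed by 1.5 and 0.167% of 10189 unchanged genes. These libraries were drawn around the Control means with the same dispersion for every gene and 200 genes changed. They had no GC trend and no library that stood apart. In the real libraries 73.2% of genes were called and MMK-1 replicate 3 stood apart, so these rates need not hold there. GC content came from GENCODE vM21 transcripts. Alternatives covered scaling, pseudocount, filter, limma-voom on fragments, a replicate block, removal of GC or length trends by loess (span 0.3, which also centres each library) and leaving out each library with the same genes kept in the fit.

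The named genes are all 10 members, the 3 genes called with the largest change in each direction in each list, the paralogs, the ratio partners, the gene most like each member, and markers. Some genes that this rule names are not reported here. Cdkn1a's level by library was set beside the members after its values were seen, as were those of Fas, and Ddb2 and Xpc were named then too. The members and lists were chosen with earlier results of these data known.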

Additional observations from a re-analysis of the deposited data

How the results depend on the processing

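The counts of members called higher stayed between 6 and 8 in every alternative run. Members called lower went from 0 to 1 with the GC trend removed, with all libraries and without MMK-1 replicate 3, through Bbc3, whose change turned to -0.20 and -0.19 in these fits (adjusted p = 0.0124 and 0.0309, range over its alternatives 0.0124 to 0.722). The second of these fits and a fit with no filter and a pseudocount of 0.1 were chosen after seeing the data. Among the other p53 lists, the number called lower went from 16 to 25 with median-of-ratios scaling. That scaling moved all genes together, from 48.5% higher and 24.7% lower to 35.9% and 36.3%, and the 7 members stayed called. Calls were lost for Mdm2 with the length trend removed and for Trp53inp1 with no filter (adjusted p = 0.0687 and, with a pseudocount of 0.1, 0.053), and gained for Ccng1 without MMK-1 replicate 3. Trp53, Phlda3, Zmat3, Bax and Sesn2 kept direction and call in all 19 alternatives. For Eda2r the reference is the fit with no filter, and its change was 0.25 to 0.39 when 1 library was left out, an alternative also chosen after seeing the data. Leaving out 1 library at a time gave 7 to 8 members called higher, 48 to 51 list genes higher and 13 to 19 lower, and 8 to 11 separated ratios. With a pseudocount of 0.1 in the ratios, 7 of 13 were separated, without Eda2r to Trp53. The replicate numbers did not pair the libraries (correlations of same-numbered deviations 0.03, -0.04 and 0.03), and the fit with the replicate block called 7 members higher and 0 lower.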
